A study of Homo sapiens with 11 samples.

Results

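LTR12 and HERV9 elements were followed in RNA pulled down as double-stranded from HCT116 cells, an established human colorectal carcinoma line. An element belonged to the set when its name in the repeat tables began with the LTR/ERV1 class and LTR12 or HERV9, which gave 6430 of 5622516 repeat elements. Of these, 5577 were LTR12 long terminal repeats (LTRs) and 853 were HERV9 internal parts. The LTRs comprised 2781 LTR12C, 791 LTR12, 653 LTR12F, 557 elements under the separate name LTR12_, 502 LTR12D, 178 LTR12B and 115 LTR12E elements. The internal parts comprised 367 HERV9-int, 257 HERV9NC-int and 229 HERV9N-int elements. The rule itself uses names and no measured value.

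HERV9 is a family of endogenous retroviruses, and LTR12 is the name of the LTRs that flank its internal, gene-bearing part. Most LTR12 copies in the human genome stand alone, left behind when the LTRs of a provirus recombine. LTR12 copies hold a promoter that the transcription factor NF-Y can bind, and transcripts that start in LTR12 copies have been described after treatment with inhibitors of DNA methylation or of histone deacetylation. Reads on either kind of element can come from transcripts that start there or that run through from elsewhere.

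The series holds 11 libraries. In 3 of them RNA was enriched with J2, an antibody to double-stranded RNA, according to the sample labels, while the extraction protocol names a Staufen1 antibody, so which antibody was used is uncertain. These libraries came from cells given siLuc (a control siRNA, by its name against luciferase) with the solvent DMSO, siLuc with 500 nM decitabine (DAC, which inhibits DNA methyltransferases) for 5 days, and siStau1 (an siRNA against the double-stranded RNA-binding protein Staufen1) with DAC, 1 library each. siStau1 cells with DMSO were not analysed here by J2. The other 8 libraries were total RNA of the 4 combinations of siRNA and treatment, 2 each.

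Values of the 3 J2 libraries are given below in the order siLuc DMSO, siLuc DAC, siStau1 DAC. Their reads on repeats numbered 71473124, 68944777 and 83037330. Because each group has 1 J2 library, no test between conditions was possible, and the intervals of read shares cover counting error only. In the first of them 2, 4 or 6 reads were found on 1121 LTR12 and HERV9 elements, and 1, 3 or 5 reads on 188. If that excess of even numbers means that mates were counted separately, the intervals are too narrow. The J2 tables list repeats and no genes, so no marker in them could check a library's label. The library labelled siLuc DAC stood apart from both others at many LTR12 and HERV9 elements, and results are given with and without it. In bulk RNA, fewer transcripts, fewer double-stranded molecules and less efficient pull-down of them cannot be told apart. In total RNA, Staufen1 mRNA (STAU1) was 35.5 FPKM (fragments scaled to transcript length and library depth) with siLuc and DMSO, 33.7 with siLuc and DAC, 30.0 with siStau1 and DMSO, and 27.1 with siStau1 and DAC, and neither knockdown comparison was called in the authors' deposited table (q-values of 0.768 and 0.685). Markers of the epithelial line were present, with KRT8 at 834 to 3159 FPKM and KRT18 and CDH1 also found, and VIL1 was at most 0.198 FPKM. PTPRC, COL1A2 and PECAM1, of leukocytes, mesenchymal cells and endothelium, were at 0 or near it with DMSO and at most 0.820 FPKM with DAC. The other collagen looked at, COL1A1, was higher. It was at 1.59 FPKM with DMSO and 8.60 with DAC in siLuc cells, and at 0.826 and 5.65 in siStau1 cells.

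LTR12 and HERV9 elements carried 199524, 146414 and 274744 reads. These were 0.279% (Wilson 95% interval 0.278 to 0.280), 0.212% (0.211 to 0.213) and 0.331% (0.330 to 0.332) of all reads on repeats. The library labelled siLuc DAC was thus the lowest of the 3 and siStau1 DAC the highest. All other LTR elements together ordered the libraries differently, with 5.09%, 6.45% and 6.65% of reads. Other ERV1 elements (1.19%, 1.47% and 1.56%) and THE1 elements, of another LTR family (0.705%, 0.717% and 0.782%), were ordered like these. LTR7 and HERVH elements, another ERV1 family, had the order of LTR12 and HERV9, with 0.206%, 0.169% and 0.273%. That order was thus not particular to LTR12 and HERV9. As a share of reads on LTR elements, LTR12 and HERV9 made up 5.20%, 3.19% and 4.74%, so that siLuc DMSO and not siStau1 DAC was highest.

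LTR12C, the subfamily with most copies, held 64.8%, 59.0% and 62.1% of the LTR12 and HERV9 reads. Its level was 1808, 1253 and 2053 RPM (reads scaled to 1000000 reads on repeats). Lower levels in siLuc DAC than in both others were also seen for HERV9NC-int (329, 270 and 413 RPM), LTR12D (136, 98.6 and 163), LTR12_ (84.2, 48.2 and 94.5), LTR12B (56.2, 46.1 and 68.8), LTR12E (19.2, 15.2 and 21.9) and, by a margin within its counting interval, LTR12 (143, 140 and 188). In HERV9-int (125, 140 and 180), HERV9N-int (62.4, 77.5 and 86.4) and LTR12F (28.3, 34.6 and 40.6) the siLuc DAC library lay between the others. All 10 subfamilies had their highest level in siStau1 DAC on this scale. With the authors' factors, whose origin is not stated, siLuc DAC lay above siLuc DMSO in all 10 subfamilies, and siStau1 DAC lay below siLuc DAC in HERV9N-int and LTR12F (log2 ratios of -0.17 and -0.09). Element lengths are not in the tables, so levels were compared between libraries and not between subfamilies.

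**Figure D1:**
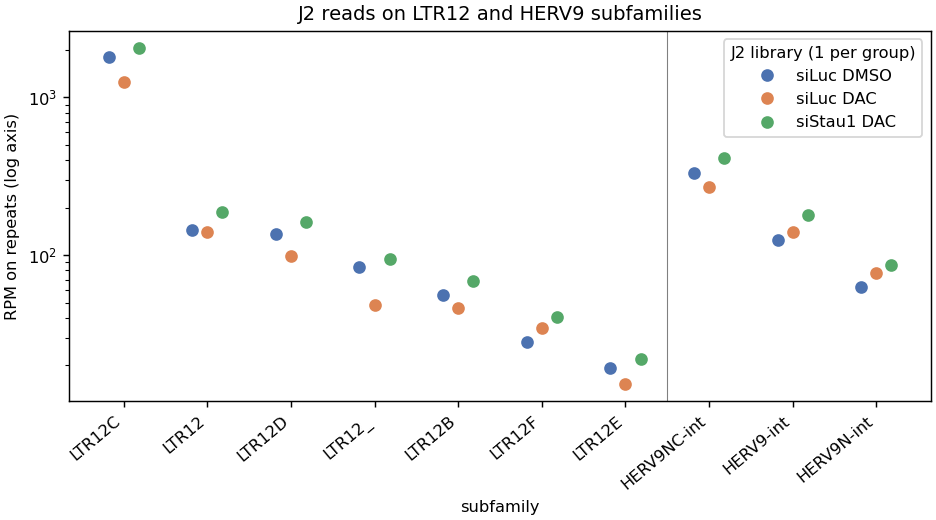
RPM (reads scaled to 1000000 reads on repeats) (log axis) for each LTR12 subfamily, left of the grey line, and each HERV9 internal subfamily, right of it, in the 3 J2 libraries (1 point per library). The siLuc DAC point is the lowest in 7 of 10 subfamilies, and siStau1 DAC is the highest in all 10, while with the authors' factors siLuc DAC lies above siLuc DMSO in all 10. In LTR12B and LTR12_ much of the lower siLuc DAC level lay in few elements.

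Over the whole set, reads were spread over many copies. At least 10 reads were found on 1869 (29.1%), 1076 (16.7%) and 2127 elements (33.1%), and after thinning to equal depth the counts were 1834, 1076 and 1943. The same was true of 10.5%, 11.2% and 12.1% of all repeat elements, which showed no dip in siLuc DAC. Among LTR12C elements the shares were 43.8%, 21.6% and 47.7%, and among HERV9NC-int elements 36.2%, 21.4% and 39.3%. The single strongest element held 1.98%, 2.14% and 1.74% of LTR12 and HERV9 reads, and the 10 strongest in each library held 11.1%, 15.8% and 10.4%. Within LTR12C the 10 strongest held 14.5%, 21.3% and 13.2%. The smaller subfamilies were more concentrated. Their 10 strongest held 35.3%, 42.9% and 36.2% of reads in LTR12F, 58.0%, 84.5% and 59.0% in HERV9NC-int, and 87.7%, 86.3% and 86.8% in LTR12B. Levels of these subfamilies thus rest on few copies. By contrast, the strongest of the LTR7 and HERVH elements, another ERV1 family, held 60.1%, 42.9% and 60.4% of that family's reads. The strongest THE1 element, of another LTR family, held only 2.21%, 2.45% and 3.17% of THE1 reads. Among all other LTR elements the strongest held 2.43%, 1.57% and 2.48% of reads. A low share of the strongest element was thus not particular to LTR12 and HERV9.

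Ratios of single elements were computed on reads scaled to the total on repeats, with 0.5 reads added, where the pair of libraries together had at least 20 reads. For siLuc DAC over siLuc DMSO the median log2 ratio of 1563 LTR12 and HERV9 elements was -0.70 (quartiles -3.19 and 0.33), against 0.01 for all repeats, 0.61 for all other LTR elements and 0.66 for other ERV1 elements. The 202 elements at 0 in one library do not move this median, but counting 3 reads as their floor brings the lower quartile to -2.93. More than 2-fold lower were 712 elements (45.6%, against 17.0% of all repeats), and more than 2-fold higher were 141 (9.02%, against 21.3%). The subfamily medians were -1.77 for HERV9NC-int, -1.27 for LTR12C, -0.37 for LTR12D, -0.35 for LTR12E, -0.15 for LTR12B, 0.00 for LTR12_, 0.21 for LTR12, 0.22 for HERV9N-int, 0.26 for HERV9-int and 0.40 for LTR12F.

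The direction of this ratio depends on the scaling. The authors' factors add 0.89 to every log2 ratio of this pair. This turns the LTR12 and HERV9 median to 0.18 and the ratio of summed reads from -0.39 to 0.49. A scaling shifts every ratio alike, so the difference from the median of all repeats, -0.72, cannot change with it. The direction also depends on depth: with at least 100 reads in the pair the median was -0.03, and it lay 0.10 above that of all repeats.

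For siStau1 DAC over siLuc DAC the median over 1722 elements was 0.98 (quartiles -0.02 and 3.57, the upper one 2.98 with elements at 0 set at 3 reads), against 0.03 for all repeats and -0.08 for all other LTR elements. There were 855 elements more than 2-fold higher (49.7%, against 15.5% of all repeats) and 76 more than 2-fold lower (4.41%, against 14.8%). HERV9NC-int had a median of 2.05 and LTR12C of 1.65, and the other subfamilies lay between 0.18 and 0.89. The authors' factors lower all ratios of this pair by 0.32, which leaves LTR12C at 1.32 and turns the medians of LTR12, HERV9N-int, LTR12F and HERV9-int below 0. The median over all LTR12 and HERV9 elements was 0.29 with at least 100 reads in the pair (0.20 above that of all repeats) and 2.05 with at least 1 read. This pair shares the siLuc DAC library with the one before, so their opposite signs are not separate observations.

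Without the siLuc DAC library, siStau1 DAC over siLuc DMSO gave a median of 0.22 over 1960 elements (quartiles -0.20 and 0.69), against 0.04 for all repeats and 0.46 for all other LTR elements. More than 2-fold higher were 278 elements (14.2%, against 14.5% of all repeats), and more than 2-fold lower were 103 (5.26%, against 8.27%). The share higher was thus near that of repeats in general. HERV9 internal elements had a median of 0.40 over 238 elements and LTR12 LTRs of 0.19 over 1722. All 10 subfamily medians were above 0, from 0.15 for LTR12C to 0.49 for LTR12F. The authors' factors add 0.57 to every ratio of this pair, which brings the LTR12 and HERV9 median to 0.78 and that of LTR12C to 0.72, while totals outside Alu bring them to 0.10 and 0.04. These libraries differ in both siRNA and treatment, so the 2 cannot be told apart.

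The siLuc DAC library was then set against both others at single elements. Of 1222 LTR12 and HERV9 elements with 20 reads or more in siLuc DMSO and likewise in siStau1 DAC, 166 (13.6%) had 0 reads in siLuc DAC, against 2.15% of all repeats, and 496 (40.6%) were below 1/4 of the mean of the other libraries, against 6.64%. The same low level was met by 10.1% of other LTR elements, 11.9% of other ERV1 elements, 11.7% of LTR7 and HERVH elements and 18.7% of THE1 elements, a MaLR family. Turned around, 11 of 749 elements (1.47%, against 4.47% of all repeats) were as low in siLuc DMSO, with 0 at 0 reads (background 0.202%). Other LTR elements (9.33%) and other ERV1 elements (10.4%) were low in siLuc DMSO nearly as often as in siLuc DAC. LTR7 and HERVH (5.84%) and THE1 elements (4.75%) were so less often. In siStau1 DAC 0 of 705 LTR12 and HERV9 elements were as low (background 0.442%) and 0 had no reads (background 0.00420%). With the authors' factors the low shares of the 3 libraries were 5.87%, 35.8% and 0%, and no share of all repeats is given at that scaling. Each of these counts needs reads in the other libraries, so elements under 20 reads in siLuc DAC are not in the counts for siLuc DMSO and siStau1 DAC, and the 3 shares are of different elements.

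**Figure D2:**
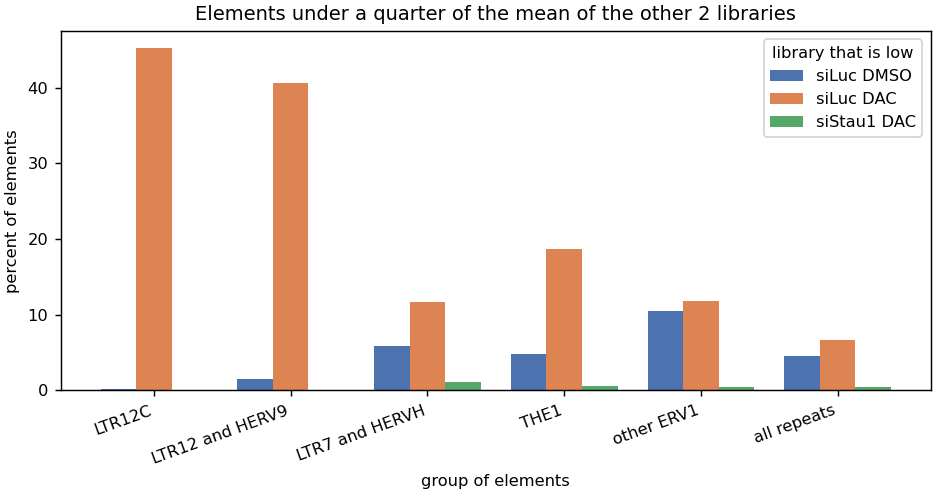
Percent of elements whose level in 1 library was below 1/4 of the mean of the other 2, among elements with 20 reads or more in both of those 2, by group of elements and by library. LTR12C reaches 45.2% in siLuc DAC, and no LTR12 or HERV9 element was low in siStau1 DAC.

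Among 342 repeat families with at least 50 such elements, HERV9NC-int ranked 2 by the share low in siLuc DAC (36 of 70, 51.4%), LTR12C ranked 3 (371 of 821, 45.2%) and LTR12D ranked 4 (22 of 56, 39.3%), behind the satellite SST1. HERV9-int ranked 8 (14 of 54, 25.9%) and LTR12 ranked 10 (21 of 84, 25.0%). Families outside the set held ranks 5 to 7 and 9. These were the retroposon SVA_F (33.1%), the MaLR internal parts MSTA-int (27.9%) and THE1D-int (27.9%), and L1PA8A (25.2%). Within the set the low share ran down to 8.00% for LTR12F (2 of 25).

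The levels of single elements in siLuc DAC were widely spread. Relative to the geometric mean of siLuc DMSO and siStau1 DAC, 48.3% of the 1222 elements lay within 2-fold in siLuc DAC and 22.7% lay more than 4 log2 units below. For other LTR elements these shares were 73.2% and 6.01%. The 496 low elements summed to 61356, 3729 and 80432 reads, or 858, 54.1 and 969 RPM, and 268 of them had at most 3 reads in siLuc DAC. The remaining 726 summed to 1708, 1945 and 2054 RPM, with siLuc DAC between the others. Between siStau1 DAC and siLuc DMSO, 92.7% of the low elements and 92.0% of the remaining ones lay within 2-fold. Low and remaining elements were divided by their siLuc DAC level, so these sums describe the division and do not test it.

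**Figure D3:**
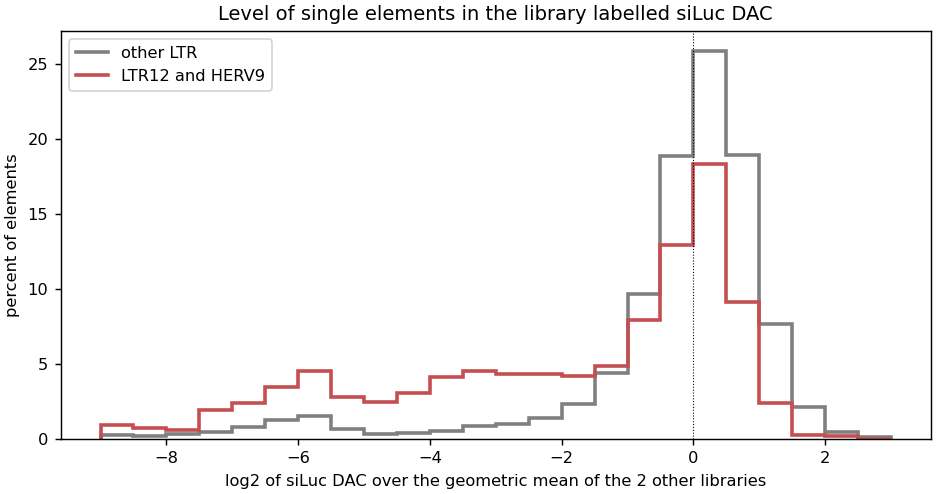
Distribution of single elements by their log2 level in siLuc DAC over the geometric mean of siLuc DMSO and siStau1 DAC, as percent of 1222 LTR12 and HERV9 elements (red) and of 28167 other LTR elements (grey), in bins of 0.5. Both have a peak near 0. The red curve has a broad shoulder that holds 22.7% of elements below -4. The grey curve holds 6.01% there, with a smaller second rise between -6.5 and -5.5. Elements with 0 reads in siLuc DAC are placed by the 0.5 reads added, so the depth of the shoulder depends in part on that addition.

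The strongest elements had both high and low levels in siLuc DAC. LTR12C_9599, with most reads of all, had 3958, 3131 and 4793 reads. HERV9NC-int_52458 had 2745, 2921 and 3180 reads and HERV9NC-int_53224 had 2289, 3009 and 3326. HERV9-int_43301, LTR12C_10379, LTR12C_9174, LTR12C_12004, HERV9NC-int_32754 and LTR12D_3672 likewise kept a log2 ratio of siLuc DAC over siLuc DMSO between -0.18 and 0.74. The exception among the 10 strongest was LTR12C_10526, with 3001, 18 and 2713 reads. Its siLuc DAC level was 0.00622 of that in siLuc DMSO, and siStau1 DAC was 125-fold above siLuc DAC.

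The 5 lowest ratios of siLuc DAC over siLuc DMSO and the 5 highest of siStau1 DAC over siLuc DAC belonged to elements at 0 reads in siLuc DAC. LTR12C_11459 had 1911, 0 and 1670 reads. With 3 reads as the floor in siLuc DAC, or 0.0435 RPM, its log2 ratio was -9.26 or lower for siLuc DAC over siLuc DMSO and at least 8.85 for siStau1 DAC over siLuc DAC. HERV9NC-int_5330 (419, 0 and 465 reads), LTR12C_11480 (349, 0 and 471), LTR12C_10066 (319, 0 and 419), LTR12C_8757 (279, 0 and 351) and LTR12D_7110 (267, 0 and 364) followed. In these last 5 the level in siStau1 DAC was 0.955 to 1.17 times that in siLuc DMSO.

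Other elements were highest in siLuc DAC. HERV9-int_69450 had 6, 98 and 20 reads, a 16.9-fold higher level in siLuc DAC than in siLuc DMSO. LTR12B_3357 had 22, 148 and 53 reads, LTR12C_12516 had 70, 386 and 93, and LTR12C_3895 had 56, 291 and 164, which put siLuc DAC above both others. LTR12F_2643_2 (13, 76 and 30 reads) and LTR12C_10215 (55, 109 and 46) were also highest there. LTR12_4197_2 was low only in siLuc DMSO, with 21, 95 and 100 reads.

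Without siLuc DAC the extremes were smaller. The highest ratios of siStau1 DAC over siLuc DMSO were those of LTR12_4850 (19 and 123 reads in siLuc DMSO and siStau1 DAC, 5.57-fold), LTR12_4197_2 (4.10-fold), LTR12_4787 (20 and 91, 3.92-fold), LTR12C_10919 (23 and 100, 3.74-fold) and LTR12_5281 (30 and 126, 3.62-fold). The lowest were LTR12C_8635_2 (82 and 32 reads, a ratio of 0.336), LTR12C_7129, LTR12C_10499, LTR12C_9607_2 and LTR12C_7438, with ratios up to 0.477. Those 5 elements had 0 to 2 reads in siLuc DAC. All elements named for a high or low ratio were picked by that ratio among those with at least 100 reads in the pair, so their values are a description.

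The tables give no positions, so the order of their rows was used to ask which elements lie together. That order is not stated to be genomic. HERV9 rows stood within 2 rows of an LTR12 row in 85.2% of cases (727 of 853), against 0.379% of all rows. LTR12 and HERV9 rows at most 3 rows apart were joined into 4993 runs. Of these, 4217 were 1 LTR12 row alone, 279 held several LTR12 rows, 419 held LTR12 and HERV9 rows together, and 78 held HERV9 rows only.

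LTR12 rows standing alone and rows of mixed runs were low in siLuc DAC about equally often, in 350 of 873 (40.1%) and 114 of 274 cases (41.6%). In runs of several LTR12 rows the count was 32 of 72 (44.4%). Rows alone carried 1677, 1346 and 1978 RPM, and mixed runs 901, 661 and 1092. Of 95 runs with 2 or more elements deep enough to judge, 31 had all of them low, 51 had none low and 13 had some of each.

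The run ranked 2 by its reads shows a loss along a whole run. It had 5 rows in the order LTR, internal parts, LTR. LTR12C_10526 opened it with 3001, 18 and 2713 reads, HERV9NC-int_5294 had 842, 8 and 788, HERV9NC-int_1132 had 2, 0 and 8, HERV9NC-int_27949 had 1049, 6 and 1022, and LTR12C_10280 closed it with 1570, 11 and 1769. The sums were 6464, 43 and 6300 reads. The runs ranked 1 and 3 by reads had the same order of parts and no such loss. Around HERV9NC-int_53224 the sums were 3965, 4994 and 5467 reads, and around HERV9NC-int_52458 they were 4048, 3797 and 4638.

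**Figure D4:**
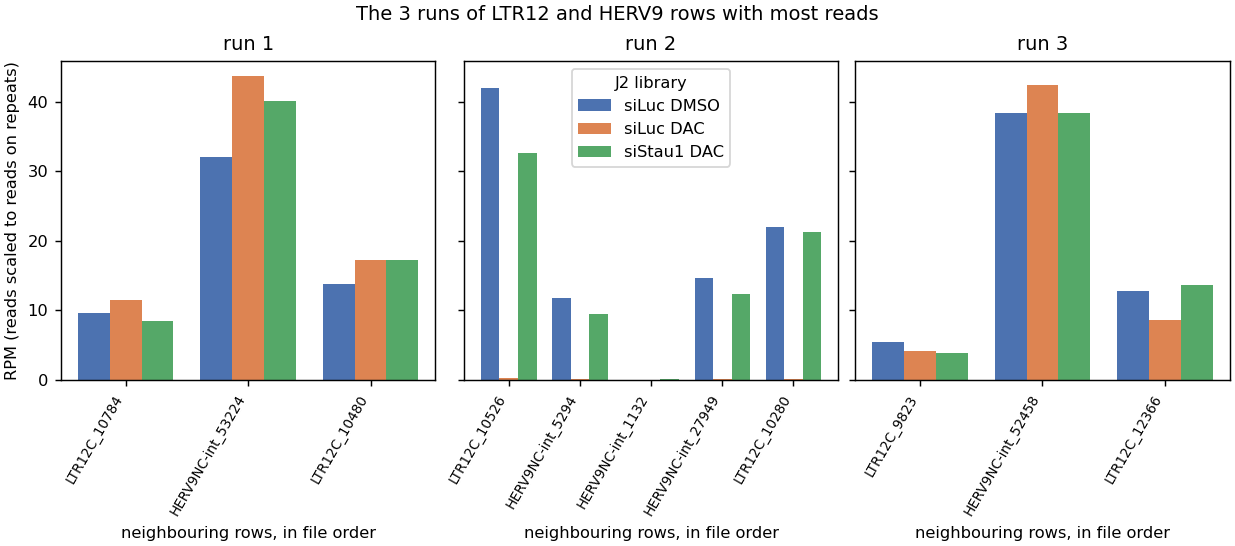
RPM (reads scaled to 1000000 reads on repeats) for each element of the 3 runs of LTR12 and HERV9 rows with most reads, in file order (1 bar per J2 library). In the middle run the siLuc DAC bars are near 0 at all 5 elements, with 43 reads against 6464 and 6300, and in the other runs they lie within 2-fold of the bars beside them.

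Other repeats beside the low LTR12 and HERV9 elements were low too. Of 350 repeats of other families with enough reads and within 5 rows of a low element, 300 (85.7%) were themselves low in siLuc DAC, against 54 of 1060 (5.09%) within 5 rows of an LTR12 or HERV9 element that was not low and 6.52% of all other repeats. For repeats in the very next row the counts were 62 of 67 (92.5%) and 9 of 209 (4.31%), and within 10 rows they were 476 of 613 (77.7%) and 92 of 2085 (4.41%). The loss was thus not limited to LTR12 and HERV9 rows, while the families of the low neighbours were not counted. Neighbours can share a transcript, so they are not separate observations, and the cause of the loss was not tested.

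**Figure D5:**
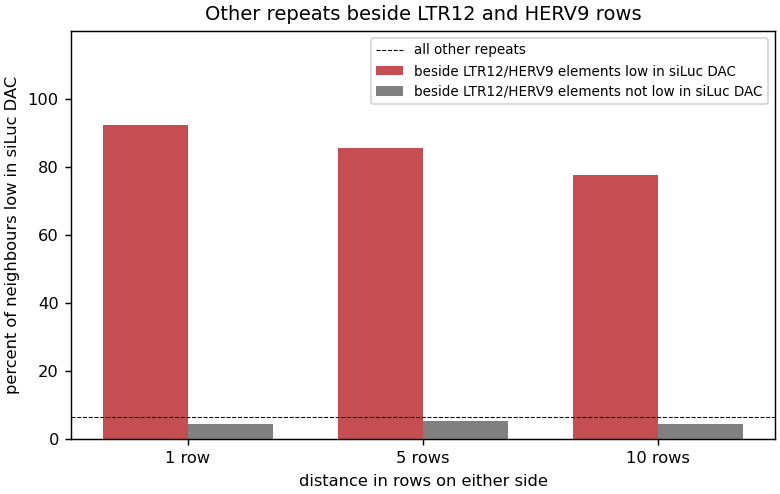
Percent of repeats of other families that were low in siLuc DAC (below 1/4 of the mean of the other libraries), within 1, 5 or 10 rows of LTR12 and HERV9 elements that were low (red) or not low (grey), with all other repeats as the dashed line at 6.52%. The red bars fall from 92.5% to 77.7% with distance, and the grey bars stay between 4.31% and 5.09%.

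In total RNA, a list of 9 genes was read from the authors' deposited table: 6 linked to an LTR12 copy (TP63, TNFRSF10B, ZNF80, ADH1C, GBP2 and GBP5) and the 3 NF-Y subunits. With DAC in siLuc cells 2 of 7 tested genes were called at a q-value under 0.05, 1 in each direction, against 13.5% of all genes. GBP2, an interferon-inducible guanylate-binding protein (chromosome 1, 89106132 to 89150456, GRCh38), rose from 0.707 to 8.51 FPKM (log2 ratio 3.41 with 0.1 FPKM added, q-value 0.00415). NFYB, the NF-Y subunit with a histone fold that pairs with NFYC, fell from 22.4 to 7.00 FPKM (log2 ratio -1.66, q-value 0.0228). The median log2 ratio of the list's tested genes was 0.80, that of TNFRSF10B, against 0.23 for all genes tested. It joins 2 unlike kinds of gene: TP63 and GBP5 lay at 3.19 and 3.29, and NFYA and NFYC at 0.05 and 0.04. Markers of cell type moved with DAC in the same table. In siLuc cells EPCAM fell from 259 to 117 FPKM (q-value 0.0157) and PECAM1 rose from 0 to 0.633 (q-value 0.00162). In siStau1 cells PTPRC rose from 0 to 0.820 FPKM (q-value 0.00162), the fibroblast collagen COL1A1 from 0.826 to 5.65 (q-value 0.0201) and the keratin KRT18 from 509 to 2415 (q-value 0.0348). Each moved the same way with the other siRNA, without a call. In siStau1 cells EPCAM went from 338 to 179 FPKM (q-value 0.0905) and PECAM1 from 0.00618 to 0.777 (q-value 0.568). In siLuc cells COL1A1 went from 1.59 to 8.60 (q-value 0.0587) and KRT18 from 681 to 3469 (q-value 0.0773). PTPRC, from 0 to 0.1745, was not tested there. The part of these shifts in the changes of GBP2 and NFYB was not tested.

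In siStau1 cells DAC gave 1 call of 7 (background 7.46%), GBP2 again, from 0.369 to 5.28 FPKM (q-value 0.0470), with NFYB at 48.5 and 16.9 FPKM (q-value 0.0667). TP63, a p53-family factor whose germ-cell transcript starts in an LTR12 copy, had 0.00546 FPKM with DMSO and 0.865 with DAC in siLuc cells, and 0.0377 and 0.704 in siStau1 cells, with no call. GBP5 was at 0.0195, 1.07, 0.0830 and 0.905 FPKM in the same order, and TNFRSF10B, a death receptor, at 37.6, 65.7, 28.4 and 49.8, also with no call. ZNF80 and ADH1C stayed at or below 0.281 FPKM and were not tested. NFYA ranged from 8.64 to 9.66 FPKM and NFYC from 31.3 to 33.2. Knockdown gave 0 calls of 5 tested with DMSO and 0 of 7 with DAC by the authors' Cuffdiff-layout table, with 1 unadjusted p-value under 0.05 in each, that of NFYB (backgrounds 0.799% and 0.904%). Each group has 1 deposited value for 2 libraries, so the spread between libraries is not known. The table also does not say from which start site a gene's reads came.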

How the data were processed

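HCT116 RNA was measured in 3 J2 libraries and 8 total RNA libraries. The submitters' processing notes name bcl2fastq 2.20, HISAT2 2.1.0, featureCounts, DESeq 1.36.0, Cuffdiff 2.2.1, Cuffnorm 2.2.1 and the build hg38, with no role or order. For J2 the authors deposited tables of repeat elements in which siLuc DMSO is a count plus 1. The deposited signal of siLuc DAC and siStau1 DAC is a count plus 1 times a factor of unstated origin (1.92 and 1.27). Dividing each column by its minimum and subtracting 1 gave whole reads for all values, with a largest gap of 1.77e-08 from a whole number. How reads that fit several copies were counted is not given in the sources used here, so reads of near-identical LTR12 and HERV9 copies are uncertain. Names carry a number of unstated meaning and no position, so no coordinates or sequences of elements were used. For total RNA the authors deposited 1 FPKM per group, with a p-value, a q-value over all comparisons and a test score, which was not used.

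Log2 ratios of reads were computed as described beside the results, with Wilson 95% intervals of shares. A count model was not fitted, because each group has 1 J2 library. Tools were Python 3.11.15, pandas 2.3.3, NumPy 2.4.6, SciPy 1.17.1 and matplotlib 3.10.9, and the scripts were tested on simulated data. Gene positions are from GENCODE on GRCh38. Elements named by rule are the 10 with most reads and the 5 highest and 5 lowest of each pair with at least 100 reads. Elements of a run, and those named for the levels of LTR12B and LTR12_, were added. The members, the gene list, the other parts and the tests were chosen with earlier results of these data known, and the measure of elements below 1/4 of the other libraries, the runs and the neighbours after the data were seen. Alternatives were other scalings, read minimums, reads added, denominators and element sets.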

Additional observations from a re-analysis of the deposited data

How the results depend on the processing

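No paired analysis was possible because each J2 group has 1 library and the total RNA table has 1 value per group. Leaving out a replicate was likewise not done.

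The share of LTR12 and HERV9 reads in siLuc DMSO, siLuc DAC and siStau1 DAC was 0.656%, 0.399% and 0.719% of reads outside Alu elements, 5.20%, 3.19% and 4.74% of reads on LTR elements, and 0.250%, 0.182% and 0.297% without the 10 strongest elements. Without elements at 0 in 1 library it was 0.262% in siLuc DMSO and 0.314% in siStau1 DAC. siLuc DAC was lowest under each of these, but siStau1 DAC was not highest among reads on LTR elements.

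The log2 ratio of summed reads for siLuc DAC over siLuc DMSO was 0.49 with the authors' factors, -0.72 with totals outside Alu, -0.46 without the 10 strongest elements and -0.30 without elements at 0. For siStau1 DAC over siLuc DAC these were 0.32, 0.85, 0.71 and 0.56. For siStau1 DAC over siLuc DMSO they were 0.81 and 0.13 under the first 2 and 0.26 without elements at 0.

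The median over elements for siLuc DAC over siLuc DMSO was 0.18 with the authors' factors, -1.03 with totals outside Alu, -1.71 with at least 1 read and -0.026 with at least 100 reads. Relative to all repeats the last 2 were -1.81 and 0.10. Its sign therefore turned with the authors' factors and, relative to all repeats, with the higher minimum. For siStau1 DAC over siLuc DAC the median was 0.66, 1.19, 2.05 and 0.29 under the same settings, and 0.80 with 5 reads added. Relative to all repeats the last 3 were 2.05, 0.20 and 0.81. For siStau1 DAC over siLuc DMSO it was 0.78 with the authors' factors, 0.10 with totals outside Alu, 0.27 with at least 1 read, 0.18 with 5 reads added and 0.18 scaled by the median ratio of all elements, and relative to all repeats 0.12 with at least 1 read and 0.24 with at least 100.

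Elements with at least 2 reads numbered 3337, 2194 and 3611 in siLuc DMSO, siLuc DAC and siStau1 DAC, and with at least 100 reads 417, 295 and 536. Elements at 0 in siLuc DAC numbered 59 with at least 50 reads in each other library and 22 with at least 100. No share of all repeats is given at these minimums, so these counts cannot be set against the background.

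Elements low in siLuc DAC were 49.6% below 1/2 of the other libraries' mean, 32.1% below 1/8, 33.6% with at least 100 reads in each other library and 35.8% with the authors' factors. Those low in siLuc DMSO were 9.48%, 0.668%, 0% and 5.87% under the same settings, and those low in siStau1 DAC were 1.70% below 1/2. The alternatives for this measure were chosen after seeing the data. No share of all repeats is given under them. They show how the LTR12 and HERV9 shares moved and not how these stood against the background. At a q-value under 0.01 the list's calls with DAC were 1 (GBP2) in siLuc cells and 0 in siStau1 cells.

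Depth limits what can be said of single elements: 2744 to 4146 of 6430 had 0 reads in a library. One library per group gives no spread between cultures, and no value in the J2 tables checks a library's label. The cause of each shift above was not tested.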
